A study of Arabidopsis thaliana with 36 samples.

Results

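The SAUR (small auxin up RNA) genes of Arabidopsis thaliana were followed through the first hours of simulated shade in wild-type seedlings and in mutants of light signalling. The members were 50 genes given by a list of gene identifiers, out of 32833 genes in the deposited table. The rule that selects them uses identifiers and no expression threshold, but the list was drawn up with earlier results of these data known. They are a portion of the family, since the RefSeq annotation of the TAIR10.1 assembly gives a SAUR name to 80 genes. Of the 50, 28 lie in 5 tandem clusters, called here by the start of their identifiers: AT5G180 with 6 members, AT1G294 with 8 (its last genes begin with AT1G295), AT4G347-348 with 6, AT4G388 with 4 and AT3G038 with 4. The other 22 members are called dispersed because they lie outside these clusters, but some of them are neighbours: SAUR7, SAUR6 and SAUR12 lie together on chromosome 2, where SAUR7 and SAUR6 overlap on the same strand, and SAUR51 with SAUR52 and SAUR53 with SAUR54 carry consecutive identifiers on chromosome 1.

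Wild type (WT) was the Col-0 accession, and the mutants were hy5, which carries a mutation in HY5, pif457, a triple mutant of PIF4, PIF5 and PIF7, and hy5 pif457, which combines both. The labels name no alleles. All seedlings were 7 days old and had grown in continuous white light at 22 °C with a ratio of red to far-red light of about 1.58. They were then placed under the same white light with added far-red light, at a ratio of about 0.02, which imitates shade from neighbouring plants, and were harvested just before (0 h) and at 1 and 8 h. Each of the 12 groups of genotype and time holds 3 biological replicates of whole seedlings, so hypocotyl, cotyledon and root RNA are mixed in every library. White-light controls harvested at 1 or 8 h are not part of the design, so an effect of shade and an effect of elapsed time cannot be told apart.

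As background, SAUR genes encode small proteins, many of which are induced within minutes by the hormone auxin. SAUR proteins bind and inhibit phosphatases of the PP2C.D group, which otherwise switch off the proton pumps of the plasma membrane, so that more SAUR protein leaves the pumps more active, the cell wall more acidic and the cell better able to expand. In shade, the transcription factors PIF4, PIF5 and PIF7 raise auxin synthesis in the cotyledons through YUC genes and also bind growth genes directly, at the G-box (CACGTG) and the PBE-box (CATGTG). HY5 is a transcription factor that restrains hypocotyl elongation in the light.

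The libraries held 30846115 to 58025421 counts. HY5 transcript was lower in the libraries labelled hy5 than in WT at 0 h (log2 fold change -1.84 ± 0.14 SE, edgeR adjusted p = 3.01e-10), and PIF5 and PIF7 transcripts were lower in pif457 (-4.26 and -3.38), while PIF4 transcript was not lost (-0.31, edgeR adjusted p = 0.849). Ribosomal RNA took 6.01% to 11.6% of the counts in 12 libraries (the 9 of hy5 pif457 and the 3 of pif457 at 8 h) and 0.467% to 2.63% in the other 24. Of 19 root marker genes and 6 markers of green shoot tissue, none was at 0 in every library. The summed root marker level varied between and within groups, from 76.2 to 139 CPM, the counts scaled to a common library size, in WT at 0 h, 106 to 316 at 1 h and 29.0 to 96.0 at 8 h.

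The members within a cluster resemble each other to different degrees. In AT5G180 (chr5:5962773-5984308 in TAIR10.1), which holds SAUR19 to SAUR24 and 4 other protein-coding genes, the median identity between coding sequences was 91.2% over 15 pairs, with a range of 87.7% to 95.2%. In AT3G038 (chr3:976715-983768), with SAUR26 to SAUR29, it was 82.8%, and another SAUR gene that is not among the members, SAUR73, lies inside it. AT1G294 (chr1:10301377-10323239), with SAUR61 to SAUR68, ranged from 46.6% to 89.5% around a median of 63.6%. AT4G388 (chr4:18121526-18131284), with SAUR13 to SAUR16, and AT4G347-348 (chr4:16582183-16599568), with SAUR50 and SAUR1 to SAUR5, were looser, with medians of 62.0% and 59.3%. Pairs of dispersed members had a median of 50.9%. The genes are compact: 48 of the 50 consist of 1 exon.

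Close copies can exchange reads in the counting. Runs of 50 bases were shared on the same strand by 13 members with some other annotated gene, and 5 members shared at least 10% of them: SAUR63 with 27.1%, SAUR62 with 23.2%, SAUR67 with 19.5%, SAUR19 with 18.5% and SAUR7 with 15%. Within AT5G180 and AT1G294 the split between copies is therefore less certain than the cluster sum. The sums are given beside the single genes below. SAUR62, SAUR63 and SAUR67, all of AT1G294, also share runs with AT5G27780, a gene outside the cluster. The sum of AT1G294 may therefore not hold all reads shared by its copies. Whether the authors counted by strand is not given in the sources used here, and SAUR13, SAUR61 and SAUR31 share 88.1%, 43.5% and 37.4% of their runs with a gene on the opposite strand. The identifier AT1G29510 is SAUR67 in the deposited table and is called SAUR67 here, although RefSeq calls it SAUR68, the name the table gives to AT1G29490.

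The 250 bases before the annotated start of each gene were searched on both strands for the G-box CACGTG, the PBE-box CATGTG, and the auxin response elements TGTCTC and TGTCGG, which auxin response factors (ARFs) bind. A PBE-box stood in 27 of the 50 member promoters (54.0%) and in 11.1% of the 27443 promoters of the reference that were searched the same way. It was present in 8 of 8 promoters of AT1G294, 4 of 4 of AT3G038, 3 of 4 of AT4G388, 4 of 6 of AT4G347-348, 3 of 6 of AT5G180 and 5 of 22 dispersed promoters. The 39 matches lay 10 to 243 bases before the start, with a median of 104. No member promoter held a G-box, against 6.49% of all promoters, while TGTCTC stood in 7 of 50 (14.0%, against 10.9%) and TGTCGG in 2 of 50 (4.0%, against 4.16%). In the 1000 bases before the start, 72.0% of the members and 37.7% of all promoters held a PBE-box. Promoters within a cluster are related, and those of SAUR14 and SAUR15 overlap, so the matches are not independent of each other.

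The promoters printed here belong to 5 members of 4 clusters that rose in WT, each with a PBE-box, and to a pair of dispersed members without a match, SAUR10, which rose, and SAUR78, which was not called. They are from RefSeq TAIR10.1, 5′ to 3′ towards the gene, and capitals mark a PBE-box or an auxin response element on either strand. SAUR19 spans chr5:5963406-5963655 (minus strand), SAUR22 chr5:5975088-5975337 (minus), SAUR63 chr1:10305109-10305358 (minus), SAUR28 chr3:980563-980812 (minus), SAUR15 chr4:18125807-18126056 (plus), SAUR10 chr2:7833532-7833781 (plus) and SAUR78 chr1:27265807-27266056 (minus).
SAUR19: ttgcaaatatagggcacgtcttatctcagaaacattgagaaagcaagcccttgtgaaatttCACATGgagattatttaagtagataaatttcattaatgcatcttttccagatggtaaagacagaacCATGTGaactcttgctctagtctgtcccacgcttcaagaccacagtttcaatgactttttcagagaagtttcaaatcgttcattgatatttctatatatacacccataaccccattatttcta
SAUR22: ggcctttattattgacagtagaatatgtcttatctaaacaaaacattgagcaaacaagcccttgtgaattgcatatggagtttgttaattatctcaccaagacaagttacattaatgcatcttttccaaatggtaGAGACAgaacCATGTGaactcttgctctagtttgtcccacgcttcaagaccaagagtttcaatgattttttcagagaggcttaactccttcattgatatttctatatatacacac
SAUR63: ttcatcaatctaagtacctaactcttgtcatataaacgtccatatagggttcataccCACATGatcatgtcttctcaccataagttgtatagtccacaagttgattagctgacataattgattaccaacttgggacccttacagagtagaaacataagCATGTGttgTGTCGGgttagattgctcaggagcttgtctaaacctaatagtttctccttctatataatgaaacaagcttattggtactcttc
SAUR28: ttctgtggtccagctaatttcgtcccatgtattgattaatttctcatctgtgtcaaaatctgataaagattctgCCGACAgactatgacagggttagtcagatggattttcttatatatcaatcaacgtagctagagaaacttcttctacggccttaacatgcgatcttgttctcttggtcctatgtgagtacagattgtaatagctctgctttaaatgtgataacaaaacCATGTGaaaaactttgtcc
SAUR15: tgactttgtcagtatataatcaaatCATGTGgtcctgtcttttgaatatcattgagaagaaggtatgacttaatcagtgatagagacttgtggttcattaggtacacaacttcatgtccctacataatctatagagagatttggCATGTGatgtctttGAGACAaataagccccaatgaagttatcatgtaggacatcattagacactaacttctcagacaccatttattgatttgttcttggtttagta
SAUR10: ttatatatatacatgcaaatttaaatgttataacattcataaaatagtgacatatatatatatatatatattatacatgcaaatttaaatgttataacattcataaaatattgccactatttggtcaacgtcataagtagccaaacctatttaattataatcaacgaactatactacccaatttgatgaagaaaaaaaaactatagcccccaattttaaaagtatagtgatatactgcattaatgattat
SAUR78: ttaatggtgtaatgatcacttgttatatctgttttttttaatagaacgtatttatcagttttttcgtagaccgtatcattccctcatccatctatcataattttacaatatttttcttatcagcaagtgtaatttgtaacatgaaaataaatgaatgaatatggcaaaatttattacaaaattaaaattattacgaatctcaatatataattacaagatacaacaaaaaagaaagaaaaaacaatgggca
SAUR19 and SAUR22 share an unbroken run of 30 bases around the PBE-box nearer to the gene, 123 and 105 bases before the start. SAUR28 has its PBE-box 19 bases before the start, and SAUR15 and SAUR63 carry a pair each. Among the AT5G180 promoters the longest shared run was 9 to 41 bases per pair, with a median of 19, and among those of AT4G388 it was 7 to 9.

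Before shade, most members of the clusters were at low levels in WT. Per kilobase of transcript, the highest were SAUR78 (42.7 CPM per kb), SAUR14 (40.1), SAUR6 (27.5) and SAUR50 (20.2), and the median was 1.82 in AT5G180, 3.46 in AT1G294, 1.47 in AT3G038, 8.52 in AT4G388, 1.62 in AT4G347-348 and 1.87 among the dispersed members. After 1 h the highest were SAUR63 (52.8), SAUR14 (48.2), SAUR21 (47.0) and SAUR20 (46.9). The median level per kb was then 28.4 in AT5G180, 20.5 in AT1G294, 13.2 in AT3G038 and 28.5 in AT4G388, but 1.5 in AT4G347-348 and 3.51 among the dispersed members. Summed over all 50 members, the WT libraries held 246 to 279 CPM at 0 h, 542 to 620 at 1 h and 405 to 454 at 8 h, with no overlap between the times.

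**Figure D1:**
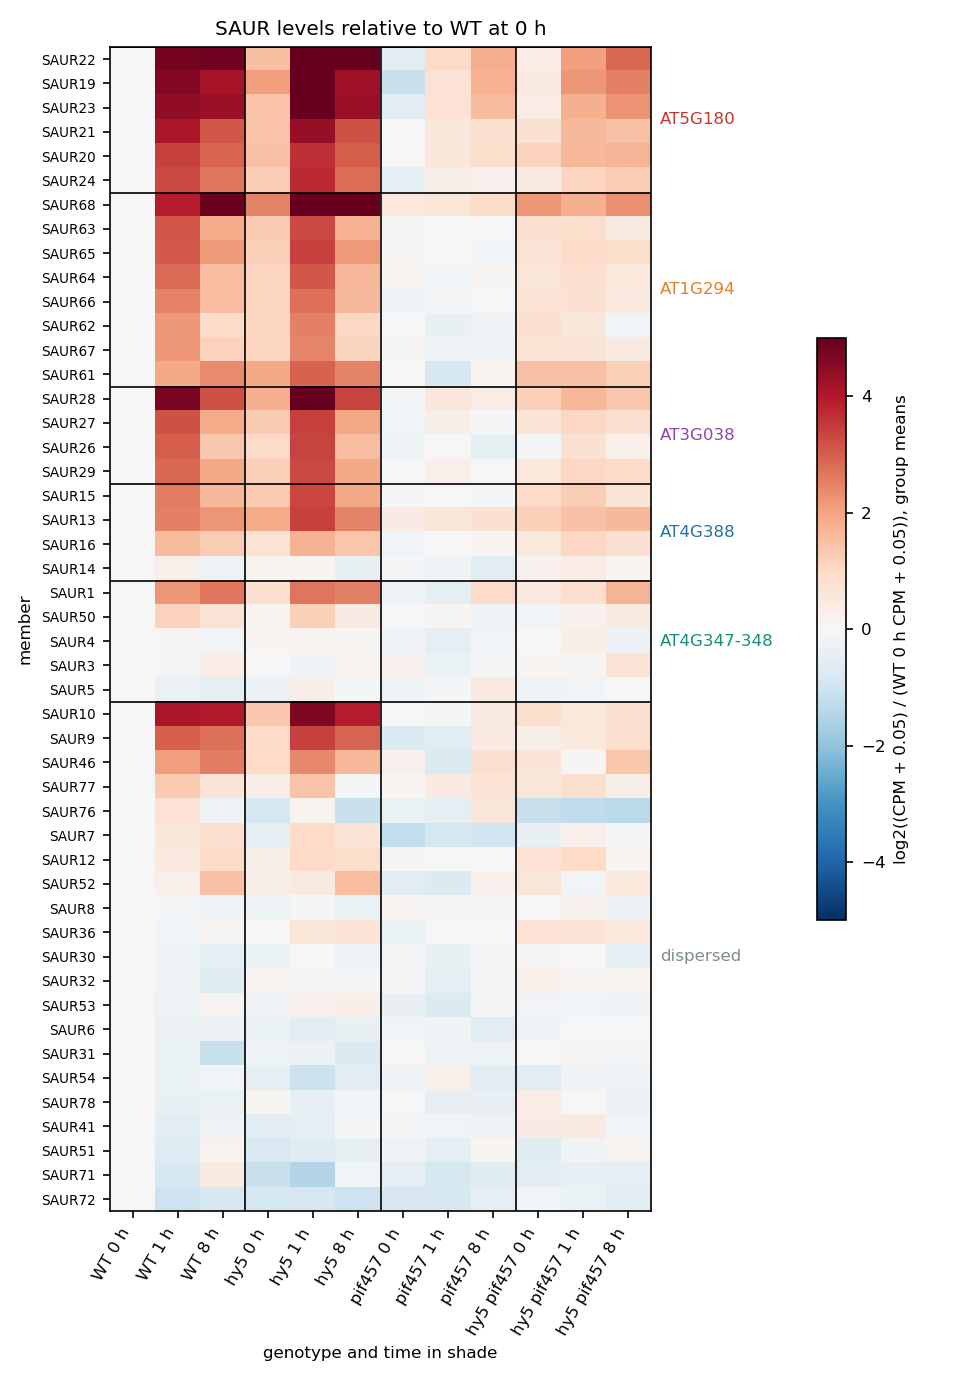
Mean level of each of the 48 tested members in each of the 12 groups, as log2 ratio to WT at 0 h after adding 0.05 CPM (colour scale from -5 to 5), with members in rows ordered by cluster. The columns of WT and hy5 at 1 and 8 h are high over AT5G180, AT1G294 and AT3G038, and those of pif457 are near the WT 0 h level over most rows.

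After 1 h of shade in WT, 27 of the 48 members that could be tested were higher and 1 was lower at an adjusted p under 0.05, where 3.56% of the 21562 genes tested were called higher and 1.64% lower. Every tested member of AT5G180 (6 of 6), AT1G294 (8 of 8) and AT3G038 (4 of 4) rose, with 3 of 4 in AT4G388, 2 of 5 in AT4G347-348 and 4 of 21 dispersed members. The median log2 fold change was 4.32 in AT5G180, 3.17 in AT3G038, 2.67 in AT1G294, 2.08 in AT4G388, 0.05 in AT4G347-348 and -0.22 among the dispersed members, against 0.02 over all genes tested. In whole seedlings, a change in the number of cells of a type and a change in RNA per cell cannot be told apart.

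In AT5G180, whose products promote cell expansion in the hypocotyl, SAUR22 (AT5G18050) rose most. It counted 1.09, 0.440 and 0.472 CPM in the 3 WT libraries at 0 h and 18.2, 18.3 and 22.3 CPM at 1 h, a log2 fold change of 4.85 ± 0.31 (edgeR adjusted p = 1.26e-11). SAUR20 (AT5G18020), the member of this cluster with the highest mean level per kb over all libraries, went from 2.88, 1.70 and 1.86 CPM to 21.2, 21.4 and 27.0 CPM (3.43 ± 0.23, edgeR adjusted p = 2.67e-11). In all 6 members every library at 1 h lay above every library at 0 h, as in 11.2% of all genes tested, and the smallest change was that of SAUR24, 3.34 ± 0.26. Summed over the cluster, which keeps reads shared between its copies together, the level was 10.8, 6.27 and 7.06 CPM at 0 h and 122, 120 and 144 CPM at 1 h, 15.9 times as much (3.99 ± 0.25, edgeR adjusted p = 6.47e-12).

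In AT1G294, whose SAUR63 promotes elongation of hypocotyls and stamen filaments, the changes ran from 2.09 ± 0.38 for SAUR61 upwards. SAUR63 (AT1G29440) rose from 3.74, 4.01 and 2.92 CPM to 34.7, 26.9 and 33.8 CPM (3.16 ± 0.27, edgeR adjusted p = 1.54e-09). SAUR62 (AT1G29430), the member with the highest mean level per kb here, rose from 7.56, 8.72 and 6.79 CPM to 38.3, 27.6 and 39.7 CPM (2.19 ± 0.26, edgeR adjusted p = 8.15e-07). For both, all libraries at 1 h were above all at 0 h. SAUR68 was close to absent before shade, with 1 count over the 3 libraries, and had 97 counts at 1 h, or 0.764, 0.925 and 0.875 CPM; the ratio of these counts per library size was 93.9, with a 95% interval of 16.5 to 3750 that covers counting error only. Its fitted log2 fold change, 6.11 ± 0.93 (edgeR adjusted p = 4.71e-05), depends on the small count the software adds and is not a bound. SAUR68 passed the count filter through groups in which it is high, such as WT at 1 and 8 h. Its calls are therefore not independent of that filter. The cluster sum rose 6.06 times (2.60 ± 0.22, edgeR adjusted p = 1.5e-09).

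In AT3G038, whose SAUR26 to SAUR28 are known for growth in warmth, SAUR28 (AT3G03830) rose from 0.178, 0.275 and 0.236 CPM to 7.64, 7.59 and 6.88 CPM (4.99 ± 0.33, edgeR adjusted p = 1.81e-11). SAUR29 (AT3G03820) rose from 2.27, 1.48 and 1.92 CPM to 16.1, 13.3 and 13.0 CPM (2.90 ± 0.23, edgeR adjusted p = 5.37e-10), the smallest change of the cluster. In both, the libraries at 1 h lay above those at 0 h, and the cluster sum rose 9.57 times (3.26 ± 0.24, edgeR adjusted p = 1.13e-10).

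AT4G388 and AT4G347-348 were mixed. In AT4G388, SAUR15 (AT4G38850), long used as an early marker of auxin response, went from 0.662, 0.770 and 0.709 CPM to 5.61, 3.84 and 4.02 CPM (2.65 ± 0.27, edgeR adjusted p = 8.09e-08), and SAUR16, which takes part in cotyledon opening in light, from 18.8, 11.6 and 17.1 CPM to 60.4, 41.8 and 40.8 CPM (1.59 ± 0.23, edgeR adjusted p = 2e-05). SAUR14, the member with the highest mean level per kb there, counted 26.1, 20.8 and 23.1 CPM at 0 h and 32.6, 25.3 and 26.2 CPM at 1 h; the ranges overlap and the difference did not pass the test (0.26 ± 0.17, edgeR adjusted p = 0.392). The sum of AT4G388 rose 2.1 times (1.07 ± 0.19, edgeR adjusted p = 0.000381).

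In AT4G347-348, SAUR50 (AT4G34760), which like SAUR16 acts in cotyledon opening, rose from 20.2, 14.3 and 19.5 CPM to 45.7, 40.5 and 33.6 CPM (1.15 ± 0.20, edgeR adjusted p = 0.000349). SAUR1 rose from 1.58, 1.87 and 1.21 CPM to 9.14, 6.53 and 6.52 CPM (2.25 ± 0.30, edgeR adjusted p = 7.39e-06). All their libraries at 1 h lay above those at 0 h. SAUR3, SAUR4 and SAUR5 stayed between 0.381 and 1.51 CPM in these 6 libraries, with log2 fold changes of -0.11, 0.05 and -0.39 that did not pass. SAUR2 was not tested: it had no count in WT at 0 or 1 h.

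Of the dispersed members, SAUR10, SAUR9, SAUR46 and SAUR77 rose. SAUR10 (AT2G18010) went from 0.255, 0.220 and 0.118 CPM to 4.26, 4.57 and 3.55 CPM (4.35 ± 0.40, edgeR adjusted p = 7.24e-09), with no match to the motifs in the 250 bases before its start; the 1000 bases before it hold a PBE-box and TGTCTC. SAUR9 changed by 3.13 ± 0.40, SAUR46 by 2.18 ± 0.32 and SAUR77 by 1.36 ± 0.31. SAUR72 (AT3G12830) was the member called lower, from 9.47, 4.59 and 11.4 CPM to 4.08, 4.49 and 3.69 CPM (-1.05 ± 0.24, edgeR adjusted p = 0.00758). The second library at 0 h is near those at 1 h, and the call was lost without WT 0 h replicate 1 or 3, at an edgeR adjusted p of up to 0.114. The call of SAUR77 was lost without WT 0 h replicate 3 (edgeR adjusted p = 0.0595), and both were lost in a fit of these 6 libraries alone.

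The 3 dispersed members with the highest mean level per kb did not pass. SAUR78, whose product interacts with ethylene receptors, counted 47.7, 59.5 and 47.1 CPM at 0 h and 35.4, 32.2 and 50.7 CPM at 1 h (-0.38 ± 0.24, edgeR adjusted p = 0.366). SAUR6 counted 37.8, 36.7 and 41.2 CPM, then 33.0, 26.4 and 36.3 CPM (-0.27 ± 0.18, edgeR adjusted p = 0.389). SAUR32, known from the apical hook, counted 18.4, 16.4 and 16.4 CPM, then 14.0, 15.9 and 14.0 CPM (-0.22 ± 0.15, edgeR adjusted p = 0.400). SAUR78 overlapped between the times, whereas for SAUR6 and SAUR32 the libraries at 1 h lay below those at 0 h by less than the test could call. Over all genotypes, 13 of the 48 tested members, 3 of them in AT4G347-348 and 10 dispersed, were not called against 0 h at either time, beside 61% of all genes tested.

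**Figure D2:**
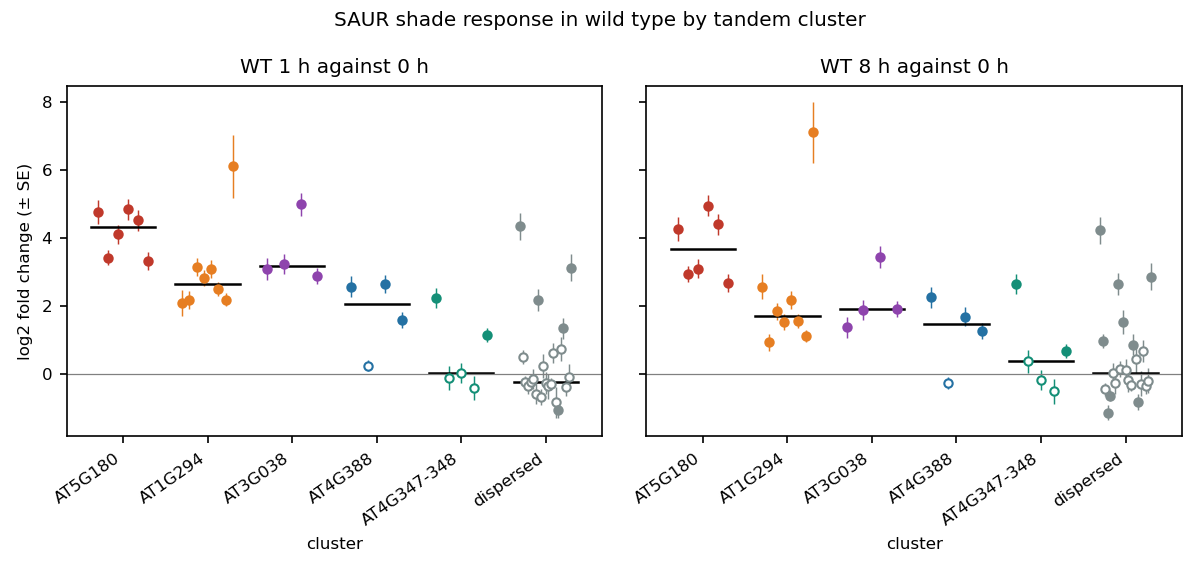
Log2 fold change of each tested member against 0 h in WT after 1 h (left) and 8 h (right), by cluster, with standard errors; filled points passed an adjusted p of 0.05 and bars mark the cluster median. All points of AT5G180, AT1G294 and AT3G038 are filled and above 0 at both times, while most dispersed members lie around 0.

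Sorted by promoter, 19 of the 26 tested members with a PBE-box in the 250 bases before the start rose in WT at 1 h, with a median log2 fold change of 2.61. Among the 22 tested members without one, 8 rose and 1 fell, with a median of 0.38. Members that rose without a PBE-box in this window were SAUR20, SAUR23, SAUR24, SAUR50, SAUR16, SAUR10, SAUR46 and SAUR77. Members with a PBE-box that were not called were SAUR3, SAUR4, SAUR5, SAUR14, SAUR6, SAUR8 and SAUR51. Since most PBE-boxes are in the clusters, motif and cluster cannot be told apart here.

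At 8 h in WT, 29 members were higher and 3 lower than at 0 h, beside 12% and 7.11% of all genes. The same 0 h libraries serve both times, so the values are given side by side without an overlap. AT5G180 remained far above 0 h: the cluster sum was 88.8, 102 and 86.7 CPM, 11.5 times the 0 h level (3.52 ± 0.24, edgeR adjusted p = 4.88e-11), and SAUR22 counted 20.9, 22.9 and 19.4 CPM (4.95 ± 0.31, edgeR adjusted p = 6.36e-12). The sums of AT3G038 and AT1G294 were 3.86 and 2.82 times the 0 h level, those of AT4G347-348 and AT4G388 1.88 and 1.58 times. SAUR68 had 203 counts against 1 at 0 h, a ratio of 189 with a 95% counting interval of 33.5 to 7490.

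The member with the highest mean level per kb was above 0 h at 8 h in 4 of the clusters. SAUR20 counted 15, 18.7 and 15.8 CPM (2.94 ± 0.23) and SAUR29 6.22, 9.02 and 6.49 CPM (1.93 ± 0.23), both above all libraries at 0 h. SAUR62 counted 15.2, 14.1 and 15.4 CPM (0.95 ± 0.25, edgeR adjusted p = 0.00873), a call lost without WT 0 h replicate 3 (edgeR adjusted p = 0.0517). SAUR50 counted 25.5, 33.8 and 27.8 CPM (0.69 ± 0.20, edgeR adjusted p = 0.0155), and its call was lost without WT 0 h replicate 2 or WT 8 h replicate 2 or 3, at up to 0.088. SAUR14, at 18.0, 21.1 and 19.8 CPM, did not pass (-0.25 ± 0.17).

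Among dispersed members at 8 h, SAUR10, SAUR9, SAUR46, SAUR52, SAUR12 and SAUR7 were higher. SAUR46 counted 3.82, 3.45 and 3.62 CPM after 0.637, 0.550 and 0.531 CPM at 0 h (2.66 ± 0.32, edgeR adjusted p = 1e-06). SAUR7 was the weakest of these (0.88 ± 0.30, edgeR adjusted p = 0.0382), and its call was lost in 5 of the 6 fits that each left out 1 library. SAUR25, which was not tested for its low counts, had 22 counts against none at 0 h, at least 6.82-fold higher if 3 counts over the group are taken as the limit of a count of 0.

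SAUR31, SAUR32 and SAUR72 were lower at 8 h. SAUR31 fell from 16.3, 15.3 and 16.5 CPM to 7.52, 8.28 and 6.37 CPM (-1.12 ± 0.23, edgeR adjusted p = 0.00105), and SAUR32 from 18.4, 16.4 and 16.4 CPM to 12.5, 11.6 and 9.07 CPM (-0.62 ± 0.15, edgeR adjusted p = 0.00363). For both the groups did not overlap, and 17.2% of all genes tested lay below 0 h in the same way. SAUR72 counted 4.02, 5.13 and 5.52 CPM (-0.80 ± 0.24, edgeR adjusted p = 0.0193), overlapped the 0 h libraries and lost its call without WT 0 h replicate 1 or 3 or WT 8 h replicate 1 or 2 (up to 0.178). No single root marker was called at either time in WT, although their median log2 fold change was 1 at 1 h and -1.14 at 8 h, and 3 of 6 green shoot markers were higher at 8 h. With the root marker score as a covariate 29 members were called in WT at 1 h. The covariate has a common slope over all libraries and is itself made of RNA levels. The part of root or shoot tissue was not tested.

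Compared directly, 13 members were lower and 2 higher at 8 h than at 1 h in WT, where 3.7% of all genes were lower and 4.46% higher, 8.16% in either direction. The fall was in AT3G038 (4 of 4 members, median -1.46) and AT1G294 (6 of 8, median -1). In AT5G180 1 of 6 passed, SAUR21, with a median of -0.49 over the 6. SAUR26 fell most, from 10.6, 8.63 and 9.79 CPM to 2.90, 3.15 and 2.80 CPM (-1.71 ± 0.30, edgeR adjusted p = 0.000282), with no overlap, and 13.1% of all genes tested likewise lay below 1 h. The sums gave -1.31 ± 0.22 for AT3G038 and -1.1 ± 0.21 for AT1G294, while that of AT5G180 did not pass (-0.48 ± 0.22, edgeR adjusted p = 0.181). The adjacent dispersed genes SAUR51 and SAUR52 were higher at 8 h than at 1 h. SAUR52 counted 0.676, 0.980 and 0.733 CPM at 1 h and 1.77, 2.09 and 1.95 CPM at 8 h (1.28 ± 0.35, edgeR adjusted p = 0.0211), and SAUR51 4.41, 3.56 and 3.29 CPM, then 5.64, 7.66 and 6.72 CPM (0.83 ± 0.24, edgeR adjusted p = 0.0267). Of these, SAUR52 lost its call without WT 1 h replicate 1 or 3, and SAUR51 in 4 of 6 such fits. Of the 19 root markers, 4 were lower at 8 h than at 1 h in WT, and 3 of 6 green shoot markers were higher. With the root marker score as a covariate 17 members were called. The part of root or shoot tissue was not tested.

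**Figure D3:**
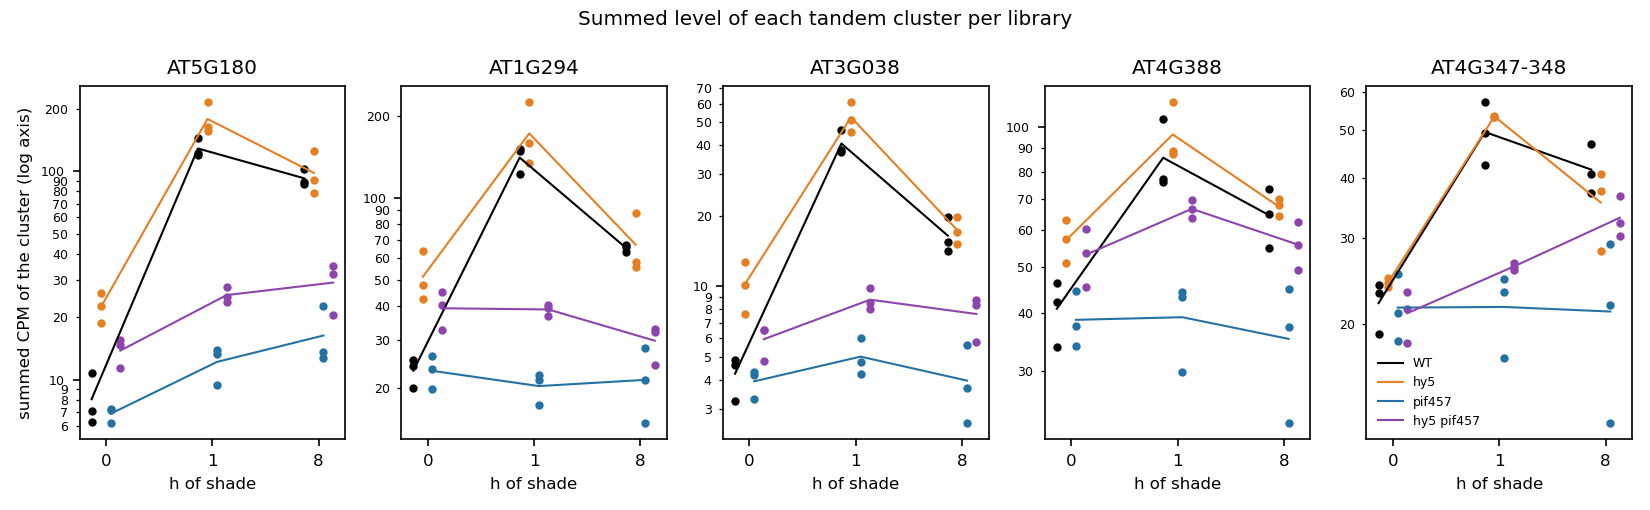
Summed CPM of each tandem cluster in every library (points, log axis) at 0, 1 and 8 h of shade, spaced evenly and not to scale, for the 4 genotypes, with lines joining the group means. In AT5G180 the WT libraries at 1 h lie at 120 to 144 CPM and those of pif457 at 9.46 to 13.8 CPM.

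In hy5, 29 members were higher at 1 h than at 0 h and 0 lower, beside 3.62% and 3.15% of all genes, 6.77% in either direction. The lists of members called higher at 1 h in WT and in hy5 rest on separate libraries: all 27 of the WT list and 27 of the 29 of the hy5 list were shared, and SAUR7 and SAUR12 were in the hy5 list but not in the WT list, although the difference in response did not pass for either. Over all genes, 767 were called higher at 1 h in WT and 780 in hy5. The overlap of those lists was not counted, so the sharing may not be particular to the members. SAUR22 rose from 2.04, 1.36 and 2.54 CPM to 32.0, 31.1 and 40.1 CPM (4.11 ± 0.28, edgeR adjusted p = 5.15e-11). SAUR12 was the weakest, from 1.37, 1.71 and 2.06 CPM to 2.52, 2.75 and 2.80 CPM (0.65 ± 0.20, edgeR adjusted p = 0.0452). Replicates with the same number deviated together in this comparison, and with the replicate as a block 28 members were called, without SAUR12. The calls of SAUR12, SAUR61 and SAUR77 were each lost in 3 or more of the fits that left out 1 library. The summed root marker level was 65.3 to 139 CPM at 0 h and 382 to 434 CPM at 1 h in hy5, without overlap, with a median log2 fold change of 1.69 over the 19 markers and none called. With the root marker score as a covariate 29 members were called. In hy5 this score was 0.9 to 2.23 at 0 h and 3.24 to 3.59 at 1 h, so it cannot be told apart from time.

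At 1 h the mean cluster sums of hy5 were above those of WT. They reached 139% of the WT 1 h mean in AT5G180, 123% in AT1G294, 130% in AT3G038, 112% in AT4G388 and 108% in AT4G347-348, a comparison of means without a test. The difference in response, hy5 minus WT on the log2 scale, was below 0 in 33 of 48 members, with a median of -0.44. Among the dispersed members it was below 0 in 7 of 21, with a median of 0.26. For members that fell, a value below 0 means a larger fall in hy5. How many of all genes lay below 0 was not counted. For no member did this difference in response pass (0% of all genes). In edgeR, 0 members were called, 18 had an unadjusted p under 0.05, and DESeq2 called 0.

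At 8 h, 15 members were higher and 1 lower in hy5 than at 0 h, beside 4.52% and 4.75% of all genes, 9.27% in either direction. They included 6 of 6 in AT5G180, 2 of 8 in AT1G294, 2 of 4 in AT3G038, 1 of 5 in AT4G347-348 and 4 of 21 dispersed members. SAUR22 counted 20.6, 29.4 and 17.8 CPM (3.50 ± 0.28, edgeR adjusted p = 1.42e-09). SAUR14 was the member called lower, from 22.0, 29.3 and 27.6 CPM to 20.6, 14.9 and 18.6 CPM (-0.54 ± 0.17, edgeR adjusted p = 0.0466), in groups that did not overlap, but the call was lost in 5 of the 6 fits without 1 library. Between 1 and 8 h, 19 members fell and 1 rose in hy5, beside 2.99% and 4.18% of all genes, 7.17% in either direction, with SAUR28 falling most, from 11.2, 8.84 and 10.5 CPM to 2.64, 3.56 and 2.31 CPM (-1.85 ± 0.26, edgeR adjusted p = 3.14e-05). The count of 20 was 13 without hy5 1 h replicate 3, the hy5 library with the most SAUR RNA at that time. SAUR52 was the member that rose (1.16 ± 0.35, edgeR adjusted p = 0.0378), from 1.1, 0.909 and 0.761 CPM to 3.02, 0.921 and 2.26 CPM; the groups overlap, and the call was lost in 5 of the 6 fits without 1 library.

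The 8 h response was smaller in hy5 than in WT for 11 members, beside 1.09% of all genes. They were SAUR19, SAUR20, SAUR21 and SAUR23 in AT5G180, SAUR61, SAUR63 and SAUR67 in AT1G294, SAUR28 and SAUR29 in AT3G038, SAUR13 in AT4G388 and the dispersed SAUR46. SAUR19 differed most among them: it counted 0.509, 0.357 and 0.148 CPM at 0 h and 7.09, 7.19 and 5.97 CPM at 8 h in WT, and 1.11, 1.95 and 1.75 CPM and then 7.96, 7.58 and 6.31 CPM in hy5, a difference in response of -2.1 ± 0.45 (edgeR adjusted p = 0.0172). The 8 h libraries of the genotypes overlapped, and those at 0 h did not. This count was unstable. Leaving out 1 library at a time gave 0 (without WT 0 h replicate 3) to 20 members (without hy5 8 h replicate 2), and 10 of the 12 such fits moved it by more than 1.5 times, down to 1 or 2 without WT 8 h replicate 2 or 3, hy5 0 h replicate 2, or hy5 8 h replicate 1 or 3, and to 6 without WT 8 h replicate 1 or hy5 0 h replicate 1 or 3. With the root marker score as a covariate 1 member was called; the median difference in response of the 19 root markers was 1.85, with none called, and 1 of 6 green shoot markers had a smaller response.

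Before shade, hy5 seedlings already held more RNA of most cluster members than WT. At 0 h, 23 members were higher and 2 lower in hy5, beside 6.35% and 3.14% of all genes, 9.49% in either direction: 6 of 6 in AT5G180, 8 of 8 in AT1G294, 4 of 4 in AT3G038, 3 of 4 in AT4G388, 0 of 5 in AT4G347-348 and 2 of 21 dispersed members. The median log2 difference was 1.46, 1.15, 1.29, 1.02, 0.09 and -0.23 in that order, against 0.03 over all genes. The sum of AT5G180 was 18.7, 25.9 and 22.6 CPM in hy5 against 10.8, 6.27 and 7.06 CPM in WT, 2.77 times as much (1.47 ± 0.23, edgeR adjusted p = 0.000182), and it reached 17.4% of the WT 1 h mean, where WT at 0 h was at 6.25%. The sums of AT1G294 (1.15 ± 0.21) and AT3G038 (1.26 ± 0.23) were called higher too. Those of AT4G388 (0.49 ± 0.19, edgeR adjusted p = 0.0909) and AT4G347-348 (0.14 ± 0.19, edgeR adjusted p = 0.694) did not pass. SAUR68 had 36 counts in hy5 against 1 in WT, a ratio of 31.6 with a 95% counting interval of 5.32 to 1280. SAUR50, of AT4G347-348, had 18.8, 19.4 and 19.3 CPM in hy5, within the WT range (0.09 ± 0.20, edgeR adjusted p = 0.826).

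SAUR72 and SAUR51 were lower in hy5 at 0 h. SAUR72 counted 4.27, 4.62 and 4.85 CPM against 9.47, 4.59 and 11.4 CPM in WT (-0.89 ± 0.24, edgeR adjusted p = 0.0192), and SAUR51 3.50, 3.58 and 3.47 CPM against 6.72, 3.85 and 7.35 CPM (-0.76 ± 0.24, edgeR adjusted p = 0.0398). In WT the second replicate is the low one for both, and SAUR72 overlaps hy5 there. SAUR72 lost its call without WT 0 h replicate 1 or 3 or hy5 0 h replicate 1, and SAUR51 in 5 of 6 such fits. Counts of called members were 17 to 23 without 1 library, but 7 of the 25 remained in a fit of the 6 libraries alone, which estimates the spread from fewer samples: SAUR13, SAUR21, SAUR28, SAUR61, SAUR65, SAUR66 and SAUR67. Of the green shoot markers, 3 of 6 were higher in hy5 at 0 h, and their part was not tested.

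**Figure D4:**
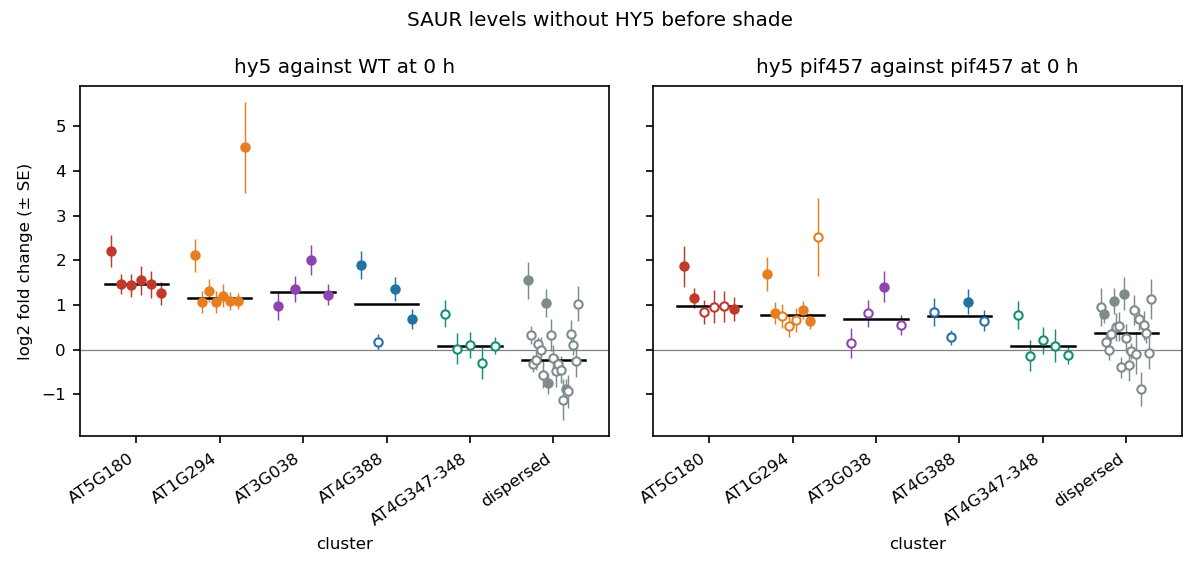
Log2 difference of each tested member at 0 h between hy5 and WT (left) and between hy5 pif457 and pif457 (right), by cluster, with standard errors; filled points passed an adjusted p of 0.05 and bars mark the median. In hy5 all points of AT5G180, AT1G294 and AT3G038 are filled and above 0, and in the right panel 12 members pass.

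In pif457 at 1 h, 2 members were higher than at 0 h and 0 lower, beside 0.0278% and 0.199% of all genes, and both belong to AT5G180. SAUR19 counted 0.0495, 0.235 and 0.102 CPM at 0 h and 0.376, 0.719 and 0.673 CPM at 1 h (2.18 ± 0.43, edgeR adjusted p = 0.0207). SAUR22 counted 0.520, 0.470 and 0.358 CPM and then 1.1, 1.31 and 1.62 CPM (1.59 ± 0.34, edgeR adjusted p = 0.039). In both genes the times did not overlap, and 6.29% of all genes tested likewise lay above 0 h. The levels of both at 1 h were below those in WT, where every library held at least 8.54 CPM of SAUR19 and 18.2 CPM of SAUR22. SAUR22 lost its call whichever of the 6 libraries was left out (edgeR adjusted p up to 0.261) and SAUR19 without pif457 0 h replicate 1 or 3 or pif457 1 h replicate 2 or 3 (up to 0.137). Both also lost it without the 12 libraries rich in ribosomal RNA. Replicates with the same number deviated together here too: 2 members were called with the replicate as a block, and 0 when the block was fitted in these 6 libraries alone.

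The other clusters showed no call in pif457 at 1 h, with median log2 fold changes of -0.14 in AT1G294, 0.40 in AT3G038, 0.10 in AT4G388 and -0.22 in AT4G347-348. The cluster sum of AT5G180 was 6.18, 7.23 and 7.15 CPM at 0 h and 9.46, 13.2 and 13.8 CPM at 1 h, which did not pass (0.83 ± 0.23, edgeR adjusted p = 0.217). The difference from the WT response was called for 24 members, all of them smaller in pif457, beside 0.844% of all genes. Among those called, it was largest for SAUR10, at 0.173, 0.235 and 0.204 CPM and then 0.110, 0.149 and 0.289 CPM in pif457, where WT had risen to between 3.55 and 4.57 CPM (difference -4.45 ± 0.60, edgeR adjusted p = 2.49e-05). It was smallest, among those called, for SAUR16, with 12.5, 17.2 and 13.8 CPM and then 11.2, 18.3 and 18.6 CPM (-1.45 ± 0.32, edgeR adjusted p = 0.0135). SAUR50, SAUR68 and SAUR77 rose in WT without a called difference. Leaving out 1 library gave 21 to 25 called members. The summed clusters differed by -3.17 ± 0.33 in AT5G180, -2.78 ± 0.30 in AT1G294 and -2.90 ± 0.32 in AT3G038, all called.

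At 8 h in pif457, 6 members were higher than at 0 h and 0 lower, beside 5.36% and 4.58% of all genes, 9.94% in either direction: SAUR19, SAUR20, SAUR21, SAUR22 and SAUR23 of AT5G180, and SAUR1. SAUR19 counted 1.69, 1.03 and 1.03 CPM (3.26 ± 0.41, edgeR adjusted p = 1.41e-05), above all libraries at 0 h and below the 5.97 to 7.19 CPM of WT at 8 h. SAUR21, the weakest, counted 1.76, 2.61 and 2.30 CPM at 0 h and 5.29, 3.34 and 3.34 CPM at 8 h (0.84 ± 0.27, edgeR adjusted p = 0.0449). Its times did not overlap, as 9.25% of all genes tested lay above 0 h, but the call was lost whichever of the 6 libraries was left out (up to 0.209). SAUR19, SAUR22 and SAUR23 kept theirs in those fits, and in a fit of these 6 libraries alone 0 members were called. The response was smaller than in WT for 20 members, beside 1.62% of all genes, with SAUR66 the smallest called difference (-1.40 ± 0.28, edgeR adjusted p = 0.00635). The fitted difference of SAUR68 was the largest (-6.28 ± 1.67, edgeR adjusted p = 0.0369), on 203 counts in WT and a few in pif457, and it was lost in 7 of 12 fits without 1 library. The 8 h libraries of pif457 are among those rich in ribosomal RNA, 4 of 19 root markers were higher there than at 0 h, and their summed level ran from 44.1 to 666 CPM. With the root marker score as a covariate 12 of the 20 differences were called.

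**Figure D5:**
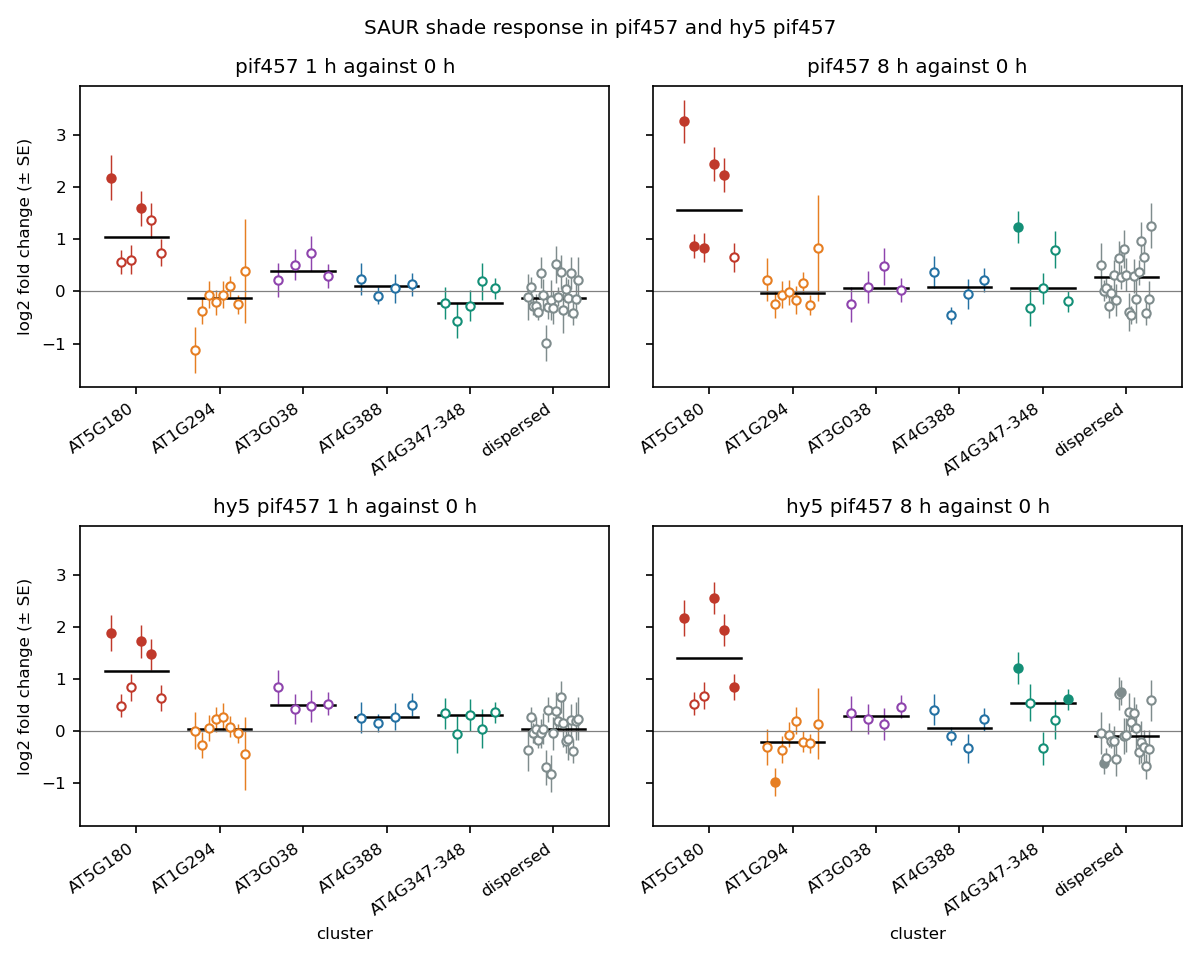
Log2 fold change of each tested member against 0 h at 1 and 8 h in pif457 and in hy5 pif457, by cluster, with standard errors; filled points passed an adjusted p of 0.05 and bars mark the median. The filled points above 0 are mostly in AT5G180, and the medians of the other clusters lie between -0.22 and 0.55.

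In hy5 pif457 at 1 h, 3 members were higher than at 0 h and 0 lower, beside 0.0557% and 0.125% of all genes, again in AT5G180. SAUR19 counted 0.350, 0.778 and 0.307 CPM at 0 h and 1.71, 1.84 and 1.74 CPM at 1 h (1.88 ± 0.35, edgeR adjusted p = 0.0111). SAUR22 went from 1.09, 0.879 and 0.675 CPM to 2.84, 2.68 and 3.16 CPM (1.72 ± 0.31, edgeR adjusted p = 0.00811). SAUR23 went from 1.3, 0.947 and 0.768 CPM to 2.29, 2.96 and 3.06 CPM (1.47 ± 0.30, edgeR adjusted p = 0.0333). None of the 3 overlapped between times, and 8.27% of all genes tested lay above 0 h in the same way. Leaving out 1 library gave 0 to 2 members, with 0 without hy5 pif457 0 h replicate 3 or 1 h replicate 3 and 1 without 0 h replicate 1 or 2 or 1 h replicate 2. The response was smaller than in WT for 24 members, beside 0.872% of all genes, from SAUR1 (-1.90 ± 0.42, edgeR adjusted p = 0.0152) to SAUR68 (fitted -6.54 ± 1.23, edgeR adjusted p = 0.00243).

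At 8 h in hy5 pif457, 7 members were higher and 2 lower than at 0 h, beside 4.73% and 6.2% of all genes. Higher were SAUR19, SAUR22, SAUR23 and SAUR24 of AT5G180, SAUR1 and SAUR50 of AT4G347-348, and SAUR51. SAUR22 counted 6.59, 3.33 and 5.55 CPM (2.55 ± 0.31, edgeR adjusted p = 1.09e-05), above its 0 h range and below the 19.4 to 22.9 CPM of WT at 8 h. The 2 lower members were SAUR62, from 15.2, 13.0 and 12.3 CPM to 7.33, 5.59 and 7.78 CPM (-0.97 ± 0.26, edgeR adjusted p = 0.0178), and SAUR12, from 2.49, 2.33 and 2.06 CPM to 1.56, 1.18 and 1.75 CPM (-0.61 ± 0.20, edgeR adjusted p = 0.0498), both without overlap and both lost whichever of the 6 libraries was left out (up to 0.0839 and 0.215). Of all genes tested, 27.1% likewise lay below their 0 h libraries without overlap. The count of 9 was 3 to 5 without hy5 pif457 0 h replicate 1, 2 or 3 or 8 h replicate 1 or 3, and 5 with the root marker score as a covariate; 3 of 19 root markers were lower at 8 h in this genotype. The response was smaller than in WT for 26 members and larger for 1, beside 8.94% and 4.74% of all genes. In the same comparison 4 of 6 green shoot markers (median -1.07) and 1 of 19 root markers had a smaller response. The part of root or shoot tissue was not tested. The member with the larger response was SAUR31, which fell in WT and counted 17.4, 14.7 and 16.4 CPM and then 14.3, 15.1 and 16.9 CPM in hy5 pif457, with overlap (difference 1.05 ± 0.32, edgeR adjusted p = 0.0307). That call was lost in 7 of 12 fits without 1 library.

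At 0 h, no member was called between pif457 and WT, beside 0.0186% and 0.0649% of all genes higher and lower, 0.0835% in either direction; edgeR gave 3 members an unadjusted p under 0.05 and DESeq2 called 0. Without WT 0 h replicate 2 the edgeR count was 2. In hy5 pif457 against WT, 10 members were higher and 1 lower, beside 5.87% and 3.07% of all genes. SAUR68 had the highest fitted difference, near the floor, with 0.245, 0.271 and 0.123 CPM against 0, 0.0275 and 0 CPM in WT. SAUR20 was higher, at 5.43, 4.80 and 4.39 CPM (1.17 ± 0.23, edgeR adjusted p = 0.00193), and SAUR76, which like SAUR78 has a product that interacts with ethylene receptors, was lower, at 0.525, 0.609 and 0.491 CPM against 1.45, 1.02 and 1.3 CPM (-1.21 ± 0.38, edgeR adjusted p = 0.0445). Both stood apart from the WT libraries, where 20.5% of all genes tested lay above WT and 12.8% below it in the same way. Leaving out 1 library gave 1 to 11 members, with 1, 4 and 6 without hy5 pif457 0 h replicate 2, 1 and 3 and with 3 and 2 without WT 0 h replicate 1 and 3. SAUR20 was the member called in all these fits. Of the root markers, 3 of 19 were higher in hy5 pif457. Over 8 alternative fits of all libraries or of these groups, among them the root marker covariate, 8 to 14 members were called. The part of root tissue was not tested.

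Between hy5 pif457 and pif457, where PIF4, PIF5 and PIF7 are mutated on both sides, 12 members were higher and 0 lower at 0 h (beside 4.6% and 2.25% of all genes, 6.85% in either direction), 21 and 0 at 1 h (5.2% and 2.83%, 8.04% in either direction), and 16 and 1 at 8 h (11.3% and 15.1%). At 1 h they were 6 of 6 in AT5G180, 7 of 8 in AT1G294, 2 of 4 in AT3G038, 2 of 4 in AT4G388, 1 of 5 in AT4G347-348 and 3 of 21 dispersed members. SAUR61 differed most at 1 h, with 0.867, 0.624 and 0.518 CPM against 0.110, 0.149 and 0.0321 CPM (2.83 ± 0.41, edgeR adjusted p = 9.08e-05). SAUR32 differed least among those called, with 18.0, 18.8 and 18.2 CPM against 14.8, 10.4 and 12 CPM (0.56 ± 0.15, edgeR adjusted p = 0.0185). Neither SAUR61 nor SAUR32 overlapped between these genotypes at 1 h. Of all genes tested, 22.9% likewise lay above pif457, and 41.1% did not overlap when both directions are counted. At 0 h SAUR19 had the largest difference called (1.87 ± 0.46, edgeR adjusted p = 0.0135) and SAUR67 the smallest (0.64 ± 0.19, edgeR adjusted p = 0.0353), with 6.86, 6.05 and 4.27 CPM against 3.64, 4.10 and 3.27 CPM. At 8 h SAUR61 had the largest upward difference called, with 0.552, 0.403 and 0.67 CPM against 0.338, 0.136 and 0.237 CPM. SAUR76 was lower in hy5 pif457 at 8 h, with 0.337, 0.698 and 0.351 CPM against 0.957, 1.93 and 2.95 CPM (-2.06 ± 0.38, edgeR adjusted p = 0.000704).

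All 9 hy5 pif457 libraries are rich in ribosomal RNA, whereas those of pif457 at 0 and 1 h are not, so this feature and the genotype cannot be told apart at those times. The counts also rest on single libraries. At 0 h, 2 members were called without pif457 0 h replicate 3 or hy5 pif457 0 h replicate 2, and 5 or 6 without pif457 0 h replicate 2 or hy5 pif457 0 h replicate 1 or 3. At 1 h, 7 to 12 were called without pif457 1 h replicate 1 or 2 or any of the 3 hy5 pif457 libraries. At 8 h, 6 to 10 were called without pif457 8 h replicate 2 or 3 or hy5 pif457 8 h replicate 1 or 3, and 11 with the root marker score as a covariate. Between these genotypes 2 of 19 root markers were higher in hy5 pif457 at 0 h and 10 were lower at 8 h, and 3 of 6 green shoot markers were higher at 1 h.

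Genes of the SAUR pathway were counted in the same fit, where 3.56% of all genes were higher and 1.64% lower in WT at 1 h. Of 6 auxin synthesis genes, 4 were higher and 1 lower in WT at 1 h: YUC9 rose from 0.662, 1.02 and 0.591 CPM to 38.9, 41.9 and 47.2 CPM (5.81 ± 0.43, edgeR adjusted p = 1.12e-10) and YUC8 by 4.09 ± 0.38, while TAA1, the enzyme of the preceding step, was lower (-0.47 ± 0.13). Of 9 PP2C.D phosphatase genes, the targets of SAUR proteins, 4 were higher, led by PP2C-D1, from 28.1, 24.9 and 23.9 CPM to 262, 246 and 315 CPM (3.42 ± 0.24, edgeR adjusted p = 4.81e-11). None of these 4 genes overlapped between times, nor did 20.9% of all genes tested. Among 6 auxin receptors 1 was higher, among 5 activating ARF genes 1, and among the 9 proton pump genes tested of 11, 1. In WT at 8 h, 3 auxin synthesis genes were higher and 1 lower, and 2 receptors, 4 ARF genes, 3 phosphatases and 4 pumps were higher, beside 12% of all genes higher and 7.11% lower.

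In hy5 the same sets gave 4 auxin synthesis genes higher and 1 lower, 1 receptor, 1 ARF gene higher and 2 lower, 4 phosphatases and 1 pump at 1 h, beside 3.62% of all genes higher and 3.15% lower. At 1 h, edgeR called none of these genes in pif457 or in hy5 pif457, beside 0.227% and 0.181% of all genes called. At such shares, the lack of a call is not particular to these sets. The response of YUC9 was smaller in pif457 than in WT by -5.60 ± 0.62 on the log2 scale (edgeR adjusted p = 1.26e-06) and that of PP2C-D1 by -3.32 ± 0.32 (edgeR adjusted p = 1.49e-07). At 8 h in pif457, 2 auxin synthesis genes, 1 receptor, 1 ARF gene, 1 phosphatase and 1 pump were higher, beside 5.36% of all genes, in libraries whose ribosomal RNA share and 4 root markers were higher as well; single genes of sets this small are near that share. PP2C-D1 then counted 89.7, 62.6 and 49.9 CPM after 20.7, 21.8 and 22.8 CPM at 0 h (1.63 ± 0.23, edgeR adjusted p = 4.73e-05), below the 215 to 235 CPM of WT at 8 h. Of the pathway genes in hy5 pif457 at 8 h, 2 phosphatases were higher and 1 lower, and no gene of the other sets was called, beside 4.73% and 6.2% of all genes.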

How the data were processed

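Gene counts of 36 libraries of whole seedlings were used as the authors deposited them: expected counts per gene, rounded to whole numbers, made with STAR 2.5.3a, RSEM 1.3.0 and TAIR10 per the submitters' processing notes. Neither the strand setting nor the annotation release was stated. Genes were kept by filterByExpr with a minimum count of 10 and a minimum total of 15, and 21562 were tested. Library sizes were scaled by TMM, and edgeR 4.0.16 (R 4.3.3) fitted 12 group terms with its quasi-likelihood test. P-values were adjusted by Benjamini-Hochberg over all genes tested, and a gene was called at an adjusted p under 0.05. CPM uses the TMM-scaled library size. Overlap of groups was read from CPM, and 8.69% to 45.2% of all genes tested did not overlap, depending on the comparison. SAUR2 and SAUR25, with 4 and 65 counts in all, were not tested. A response difference is an interaction of genotype and time. Cluster sums were fitted as added rows.

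Values per library are given mainly for the member with the highest mean CPM per kb in each cluster and the 3 highest dispersed members. The rule also takes the called members with the highest and lowest fold change in each comparison, and any called against the main direction. Not every member under this rule is printed for every comparison. The members and lists were chosen with earlier results of these data known. Members shown beyond this rule, among them SAUR63, SAUR15, SAUR16 and SAUR46, were chosen after their values were seen. So was SAUR20 for hy5 pif457 against WT at 0 h. The design text calls the samples biological replicates. Counting intervals cover counting error only. Names come from the deposited table for 24 members and otherwise from RefSeq. Same-numbered replicates deviated together in every pair for hy5 at 1 and 0 h (lowest correlation 0.31) and pif457 at 1 and 0 h (0.24). The fit was tested on simulated data for WT at 1 h against 0 h. It called 8.96% of 1.5-fold, 53.7% of 2-fold and 98.5% of 4-fold changes, and 0.0187% of unchanged genes. A member without a call can therefore still hold a 2-fold change. The simulation gives no upper limit for such a change. It changed no genes with low counts and did not cover response differences, where a larger change can be missed. Alternatives were DESeq2 1.42.0, other scaling and filters, the replicate block, left-out libraries, a root marker covariate and fits of the compared groups alone.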

Additional observations from a re-analysis of the deposited data

Results flagged for a closer look

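These results were singled out because the response to shade differed between a mutant and WT by the test of the difference itself (the interaction in edgeR's quasi-likelihood fit); groups of 3 libraries were not tested for single outlying values. At 8 h in hy5 the response differed for 11 members, from SAUR19 (-2.1) to SAUR67 (-1.11) on the log2 scale. In pif457 it differed for 24 members at 1 h, from SAUR10 (-4.45) to SAUR16 (-1.45), and for 20 at 8 h, from SAUR68 (-6.28) to SAUR66 (-1.40). In hy5 pif457 it differed for 24 members at 1 h, from SAUR68 (-6.54) to SAUR1 (-1.90). At 8 h it differed for 27, from SAUR68 (-6.97), smaller than in WT, to SAUR31 (1.05), larger than in WT. The fitted values of SAUR68 rest on 1 count in WT at 0 h and depend on the prior count. This gene passed the count filter through groups in which it is high, so its calls are not independent of the filter.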

How the results depend on the processing

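Among the members named per comparison, no called direction reversed under the alternatives run. Leaving out 1 library at a time, the number of members called was 26 to 29 for WT at 1 h, 30 to 32 at 8 h and 10 to 16 for 8 h against 1 h; 26 to 29, 12 to 17 and 13 to 20 for the same in hy5; 0 to 1 and 4 to 7 for pif457 at 1 and 8 h; and 0 to 2 and 3 to 8 for hy5 pif457. At 0 h it was 17 to 23 for hy5, 0 to 2 for pif457 and 1 to 11 for hy5 pif457 against WT. Between hy5 pif457 and pif457 it was 2 to 8, 7 to 14 and 6 to 24 at 0, 1 and 8 h. For response differences it was 0 to 0 and 0 to 20 in hy5, 21 to 25 and 15 to 26 in pif457, and 22 to 25 and 22 to 26 in hy5 pif457, at 1 and 8 h.

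Fitting only the groups compared, which leaves fewer samples to estimate the spread, called 0 members for pif457 at 1 h and at 8 h, 7 for hy5 against WT at 0 h, 2 and 0 for hy5 pif457 against pif457 at 0 and 8 h, and 0 and 8 for the 8 h differences of hy5 and pif457. With the root marker covariate, 5 were called for hy5 pif457 at 8 h, 11 for hy5 pif457 against pif457 at 8 h, and 1 and 12 for the 8 h differences of hy5 and pif457. For pif457 at 1 h, no filter gave 1 and leaving out the 12 libraries rich in ribosomal RNA gave 0. For the 8 h difference of hy5, RLE scaling gave 7, no filter 5, ribosomal and organelle genes left out 5 and the 12 libraries left out 5. The cause was not tested.

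With the replicate block the counts were 28, 32 and 15 in WT (1 h, 8 h, 8 h against 1 h), 28, 15 and 19 in hy5, 2 and 5 in pif457, and 3 and 6 in hy5 pif457. They were 21, 0 and 9 for hy5, pif457 and hy5 pif457 against WT at 0 h, and 11, 20 and 18 between hy5 pif457 and pif457. The differences gave 0 and 6 in hy5, 24 and 20 in pif457, and 23 and 27 in hy5 pif457. The block in the compared groups alone gave 0 for pif457 at 1 h. Elsewhere than hy5 and pif457 at 1 h, same-numbered samples did not deviate together in every pair, with lowest correlations from -0.67 to -0.06. Single pairs there reached 0.6 (pif457 at 8 and 0 h, replicate 3).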
